A study of Homo sapiens with 4 samples.

Results

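The genes described here are the 6 human carriers that move inorganic phosphate across the plasma membrane: the sodium-phosphate cotransporters SLC34A1, SLC34A2 and SLC34A3, the cotransporters SLC20A1 and SLC20A2, and the phosphate exporter XPR1. They were found by name in the array annotation, which pairs each of the 6 with 1 probe set that names no other gene, so all 6 of the 17958 genes tested were measured and no choice between probe sets was needed. The members were selected on the treated and vehicle levels of SLC34A2, already known as one of the genes with the largest difference in these samples, and its 5 relatives were chosen by function alone. The SLC34A2 difference between treated and vehicle cells is therefore given as a description with no test, while the other 5 members are given with the test across all genes.

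The samples were total RNA of HCT116, an established cell line from a human colorectal carcinoma, hybridized to 4 Affymetrix arrays. The treated cells (2 arrays) received 5-aza-2'-deoxycytidine, a cytosine analog that is incorporated into DNA and traps DNA methyltransferases, at 1 µM from 24 hours after seeding and again 48 hours after the first dose. The controls (2 arrays) received vehicle, and RNA of both groups was collected 72 hours after the first dose. No gene was altered in either group, and nothing states whether the arrays of a group came from separate cultures, so p-values measure the spread between these arrays, which may be technical.

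Phosphate enters cells against its gradient by coupling to sodium, which the Na,K-ATPase keeps low inside the cell. The SLC34 carriers are the regulated, apical transporters of epithelia: SLC34A1 and SLC34A3 reabsorb phosphate in the renal proximal tubule, and SLC34A2 absorbs it in the small intestine and recovers it in the alveolar type II cells of the lung. The SLC20 carriers are the broadly expressed housekeeping importers, and XPR1 is the exporter, whose SPX domain senses inositol pyrophosphates. SLC20A1, SLC20A2 and XPR1 also serve as receptors for retroviruses.

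Values are log2 levels made by the authors with the RMA method, so 1 unit is 2-fold, and array medians over all probe sets lay between 5.72 and 5.84. The table has no detection calls. Levels of different probe sets are not compared beyond their place above or below the array medians, which is a description and not a detection call. Pearson's correlation over the 33297 probe sets was 0.995 between the vehicle arrays, 0.992 between the treated arrays and 0.966 to 0.971 across groups, as a description over probe sets that share arrays. Of 9 markers of colon epithelium, 2 rose and 1 fell (33.3% called, beside 28% of all genes). KRT19 was at 0.44 and did not pass (limma adjusted p = 0.0554), but it was called higher in 6 of the 14 alternative settings described below. EPCAM, which fell, read 11.81 ± 0.02 and 11.09 ± 0.07 (mean ± SD, n = 2 in vehicle and in treated cells) and the keratin KRT18, which rose, 12.82 ± 0.04 and 13.26 ± 0.09. The intestinal transcription factor CDX2, with values from 7.74 to 8.84, lay above the array medians and rose by 0.70 (limma adjusted p = 0.0344). The call of KRT18 was lost without either vehicle array or the second treated array (limma adjusted p 0.0691 to 0.237), and that of CDX2 without the first vehicle array (0.51) or the second treated array (0.48; limma adjusted p = 0.195 and 0.0968). The more differentiated intestinal markers CDH17, with array values from 3.64 to 4.08, and VIL1, with values from 4.22 to 4.79, lay below the array medians.

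SLC34A2 went from a level below the array median to a level well above it. Its probe set read 4.33 and 3.72 on the vehicle arrays and 10.38 and 10.22 on the treated arrays. Both treated arrays were high and both vehicle arrays low, and 5.89 log2 units separated the lowest treated from the highest vehicle value. The difference was 6.27 (SE 0.20, 95% interval 5.79 to 6.76), which is 77.4-fold on this scale, with an interval of 55.3-fold to 108-fold. The vehicle arrays differed from each other by 0.61, more than the 0.16 between the treated arrays, and that vehicle gap was as large as or larger than the gap of 99.1% of genes. Leaving out 1 array at a time moved the difference between 5.97 and 6.58. RMA compresses folds of genes near background, so the fold is a value on this scale and not a ratio of transcript numbers.

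**Figure D1:**
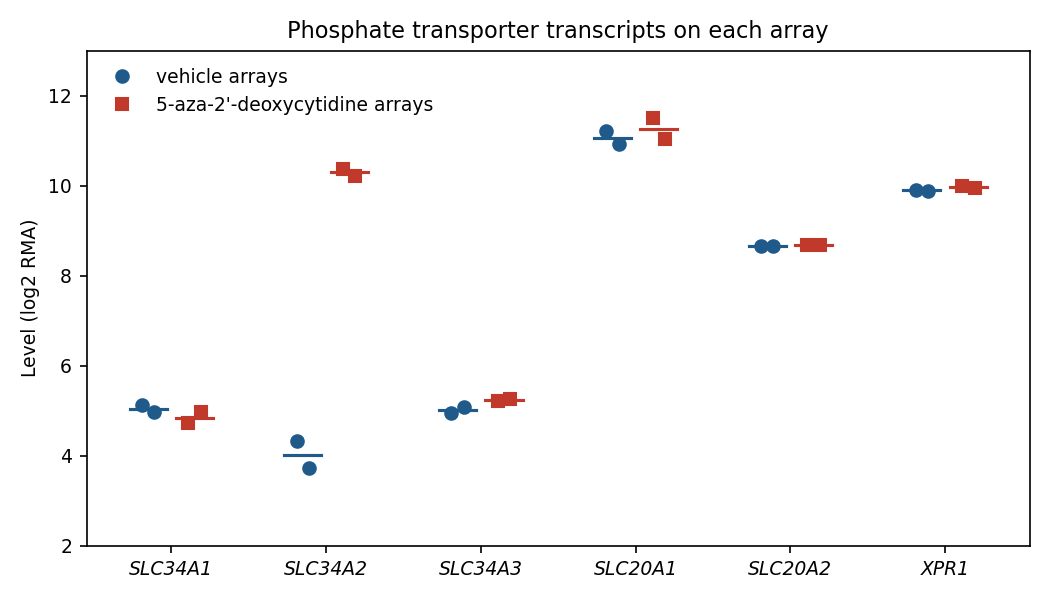
Log2 RMA level (vertical axis) of the 6 phosphate transporter genes on each array, with vehicle arrays as blue circles, treated arrays as red squares and bars at the group means of 2 arrays. SLC34A2 lies at 3.72 and 4.33 in vehicle and at 10.22 and 10.38 in treated cells, while for each other gene the points of both groups lie close together.

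The starts of these genes differ in how much CpG, the dinucleotide that DNA methyltransferases modify, they hold. RefSeq (GRCh38.p14) promoter windows were used for 5 of the 6 members, 8 windows in all, and no window of SLC20A2 was analysed. The 250 bases upstream of each start are considered. SLC34A2 has 2 annotated starts 613 bases apart. Its first window is CpG-dense and its second CpG-poor, and both are shown with the promoter of its renal paralog SLC34A1, which is also CpG-poor, and that of the housekeeping importer SLC20A1, which is CpG-dense as well. Each is written 5′ to 3′ on the plus strand, with every CpG in capitals.
SLC34A2, first start, chr4:25655601-25655850: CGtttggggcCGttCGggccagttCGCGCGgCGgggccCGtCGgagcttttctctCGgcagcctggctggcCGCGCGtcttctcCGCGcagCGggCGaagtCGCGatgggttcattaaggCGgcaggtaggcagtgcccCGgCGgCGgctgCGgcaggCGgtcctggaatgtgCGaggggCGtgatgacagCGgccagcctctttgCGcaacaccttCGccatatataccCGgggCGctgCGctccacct
SLC34A2, second start, chr4:25656214-25656463: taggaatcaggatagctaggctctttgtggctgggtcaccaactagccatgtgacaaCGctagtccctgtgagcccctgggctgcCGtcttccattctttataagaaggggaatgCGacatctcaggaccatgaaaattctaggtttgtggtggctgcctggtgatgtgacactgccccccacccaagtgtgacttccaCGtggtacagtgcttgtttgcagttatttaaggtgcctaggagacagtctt
SLC34A1, chr5:177384184-177384433: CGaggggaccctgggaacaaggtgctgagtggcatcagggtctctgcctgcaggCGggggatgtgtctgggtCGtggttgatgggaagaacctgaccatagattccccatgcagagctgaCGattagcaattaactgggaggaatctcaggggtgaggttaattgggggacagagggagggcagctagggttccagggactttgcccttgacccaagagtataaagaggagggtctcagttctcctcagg
SLC20A1, chr2:112645689-112645938: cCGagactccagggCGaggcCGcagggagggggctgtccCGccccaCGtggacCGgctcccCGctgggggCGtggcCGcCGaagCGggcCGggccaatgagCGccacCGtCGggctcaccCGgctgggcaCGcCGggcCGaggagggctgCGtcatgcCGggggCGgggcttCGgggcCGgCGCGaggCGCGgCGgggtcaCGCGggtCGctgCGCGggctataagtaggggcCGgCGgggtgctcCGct

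The first SLC34A2 window holds 33 CpGs, with a ratio of observed to expected CpG of 1.097, and 8.15% of the 35116 windows of this length in the table hold at least as many. The SLC20A1 window holds 37, a number reached by 4% of windows. The second SLC34A2 window and the SLC34A1 window hold 4 each, a number reached by 70.7% of windows. The SLC34A3 windows hold 9, 8 and 5, and the XPR1 window 12, beside a median of 11 over all windows. The probe set does not distinguish the starts of SLC34A2, and DNA methylation was not measured in these samples, so these counts describe the reference sequence alone. A CpG-dense start was found at SLC34A2 and at SLC20A1, and whether CpG density has a part in any difference was not tested.

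The renal paralogs showed no difference like that of SLC34A2. SLC34A1 read 5.12 and 4.97 on the vehicle arrays and 4.72 and 4.97 on the treated arrays, where the second vehicle and second treated values are equal at this rounding. Its difference was -0.20 (SE 0.14, 95% interval -0.52 to 0.13, limma adjusted p = 0.333). SLC34A3 read 4.95 and 5.09 in vehicle and 5.21 and 5.26 in treated cells, with both treated values above both vehicle values. Its difference was 0.21 (SE 0.12, 95% interval -0.07 to 0.49, limma adjusted p = 0.235). For both paralogs the levels lay below the array medians in both groups, and neither change passed the test.

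The housekeeping importers and the exporter stayed at levels above the array medians in both groups. SLC20A1 read 11.21 and 10.92 in vehicle and 11.52 and 11.03 in treated cells, so the groups overlap, and its difference was 0.20 (SE 0.19, 95% interval -0.25 to 0.65, limma adjusted p = 0.480). SLC20A1 was the least even member between arrays of the treated group, with a gap of 0.49, and without the first treated array its difference turned to -0.042. SLC20A2 read 8.65 and 8.66 in vehicle and 8.69 and 8.67 in treated cells, almost the same value on every array. Its difference was 0.02 (SE 0.11, 95% interval -0.24 to 0.29, limma adjusted p = 0.908), and -0.093 with the arrays centred on their medians. XPR1 read 9.90 and 9.89 in vehicle and 9.98 and 9.94 in treated cells, and its arrays too lay within a narrow band. Its difference was 0.07 (SE 0.11, 95% interval -0.20 to 0.33, limma adjusted p = 0.704), and -0.049 with the same centring.

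**Figure D2:**
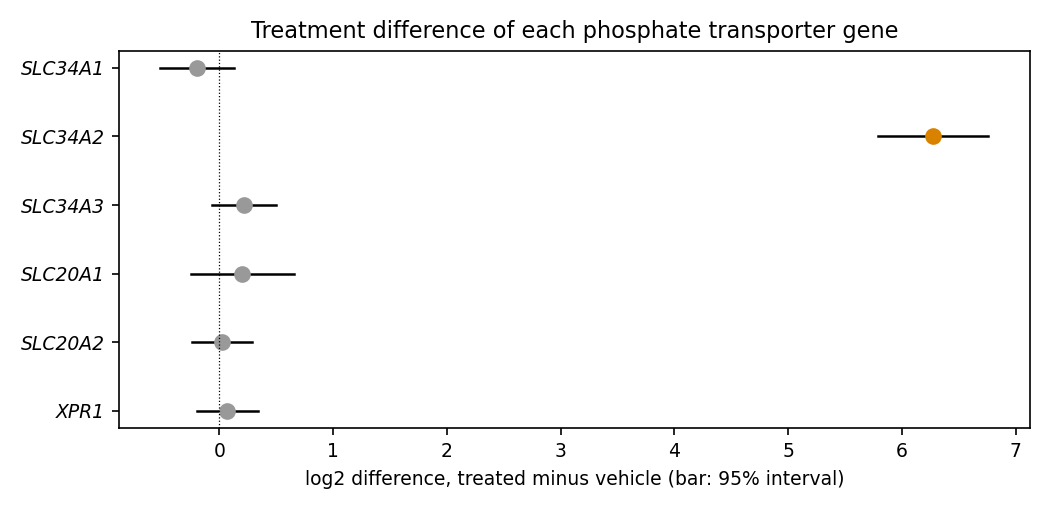
Log2 difference between treated and vehicle arrays for each phosphate transporter gene (points, 2 arrays per group) with its 95% interval from limma's moderated standard error (bars), grey for members that did not pass the test and orange for SLC34A2, which was not tested. SLC34A2 stands at 6.27, and the intervals of the other 5 genes all include 0 and lie between -0.52 and 0.65.

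Among the 6 members, 1, SLC34A2, lay past the threshold as higher and 0 as lower in limma's fit, where 12.4% of all genes were called higher and 15.6% lower. Since SLC34A2 was picked for that contrast, nothing is read from this count. Of the other 5 members, 0 were called in either direction and 0 had an unadjusted p under 0.05, and their intervals leave room for changes of up to 1.57-fold at the upper bound, that of SLC20A1. For 4 of these 5 genes the treated and vehicle arrays were separate, 3 with treated arrays higher and 1, SLC34A1, with treated arrays lower. The groups were separate for 65.8% of all genes, for 26.3% with treated arrays higher and for 39.5% with treated arrays lower. For SLC20A2 and XPR1 the separation was of 0.01 and 0.04 log2 units. That of SLC34A1 was thinner still, with a lowest vehicle value of 4.974 and a highest treated value of 4.972. None of the 5 passed the test under any of the 14 alternative settings, SLC34A1 and SLC34A3 being absent from 1 of them, in which the dimmest genes were left out. In 2 of the 14, which only set a stricter threshold on the same fit, these genes could not be called.

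Within the solute carrier superfamily SLC34A2 had the largest difference, which is a description only, since it was picked for that contrast. Of 349 genes named as solute carriers, which include all members but XPR1, 48 lay past the threshold as higher and 59 as lower. These are 13.8% and 16.9%, beside 12.4% and 15.6% of all genes. Without the members, 47 of 344 lay past it as higher and 59 as lower (13.7% and 17.2%). The median difference of the 349 was -0.07, the same as over all genes. SLC34A2 was followed by the neuronal-type glucose transporter SLC2A3 (7.36 and 7.12 in vehicle, 10.73 and 10.53 in treated cells), which rose by 3.39 (SE 0.14, limma adjusted p = 1.47e-05). SLC2A3 has a near-identical paralog, so its value is uncertain. Next came rises of the amino acid transporter SLC6A15 by 2.97, SLC35F1 by 2.66 and the monocarboxylate transporter family member SLC16A4 by 2.46 (SE 0.15, 0.17 and 0.27). The largest falls were of SLC2A12, a glucose transporter (-1.80), SLC16A14, a monocarboxylate transporter family member (-1.70), and SLC1A3, a glutamate transporter (-1.53), with limma adjusted p of 0.00128 or less. SLC34A2 alone exceeded 16-fold among solute carriers, and SLC2A3 was the only other beyond 8-fold. By difference the other members stood at ranks 82 (SLC34A3), 88 (SLC20A1), 135 (SLC20A2) and 235 (SLC34A1) of 349.

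**Figure D3:**
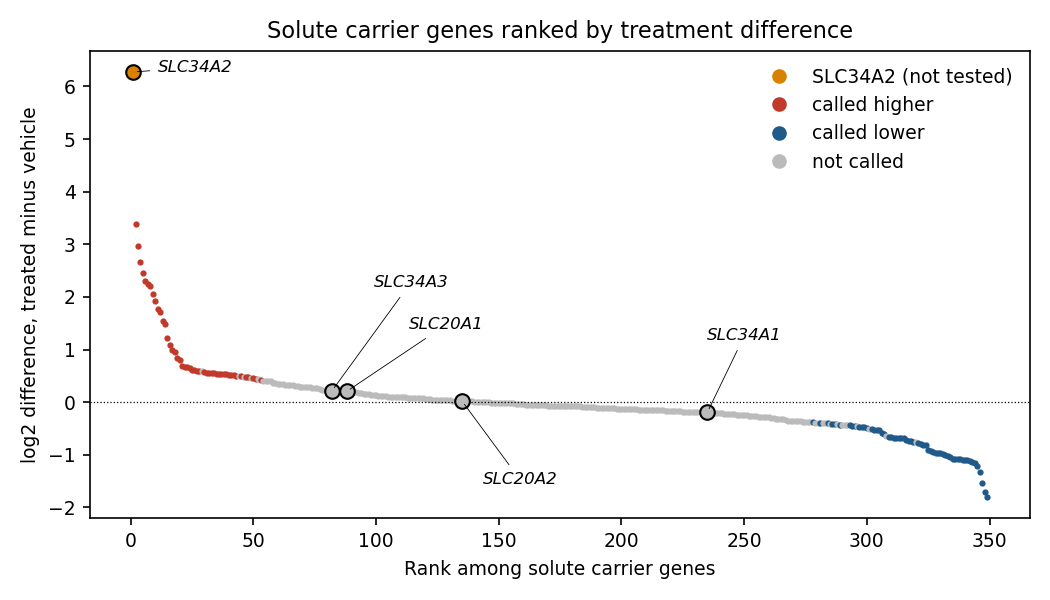
Log2 difference between treated and vehicle arrays (vertical axis) of 349 solute carrier genes ranked from highest to lowest, with genes called higher in red, called lower in blue and not called in grey; the 5 phosphate transporters among them are outlined and named, and SLC34A2 is in orange. SLC34A2 stands first at 6.27, well above SLC2A3 at 3.39, and the other 4 lie in the flat middle of the ranking.

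Other transport proteins of the intestinal brush border and mucosa, with which SLC34A2 shares a tissue, were mostly not called. Of 20 tested, 1 rose and 2 fell (15% called, beside 28% of all genes), with a median difference of -0.03. SLC6A20, an imino acid transporter, rose by 0.59 (SE 0.13, limma adjusted p = 0.0177). SLC11A2, an iron transporter, fell by 1.16 (SE 0.13, limma adjusted p = 0.00106), and the sodium-proton exchanger SLC9A2 fell by 0.98 (SE 0.26, limma adjusted p = 0.0321). The rise of SLC6A20 was not called without the second vehicle array (0.47, limma adjusted p = 0.170), and the fall of SLC9A2 was not called without either vehicle array (-0.99 and -0.97, limma adjusted p = 0.0688 and 0.0713). SLC9A2 read 6.59 and 5.71 on the treated arrays, and its difference was -1.42 without the first and -0.54 without the second of them. SLC5A1, the glucose cotransporter, and SLC9A3, the main apical sodium-proton exchanger, were at 0.40 and 0.34 and did not pass (limma adjusted p = 0.0710 and 0.0690). With arrays centred on the housekeeping list SLC9A3 passed (limma adjusted p = 0.0410).

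Markers of the cell types that normally carry SLC34 transporters were examined in the same arrays. Of 9 alveolar type II markers, 0 rose and 1 fell in limma's test (11.1% called, beside 28% of all genes). Without adjustment, at limma p under 0.05, 0 were higher and 2 lower. The mean level of the list was 5.76 and 5.83 in vehicle and 5.56 and 5.79 in treated cells. The surfactant genes SFTPB and SFTPC read 4.20 to 4.52 and 4.43 to 5.09 over the 4 arrays, below the array medians. Others of the list lay above the medians in both groups and were not called: ABCA3 (6.81 to 7.20), LAMP3 (6.82 to 7.22) and ETV5 (10.00 to 10.18). NAPSA, an aspartic peptidase of these cells, fell by 0.54 (SE 0.11, limma adjusted p = 0.0134), a call lost without either vehicle array (-0.51 and -0.58). Of 9 markers of the renal proximal tubule, 0 rose and 0 fell (0% called, beside 28% of all genes). Without adjustment, at limma p under 0.05, 0 were higher and 1 lower. Their mean level was 4.51 and 4.64 in vehicle and 4.43 and 4.48 in treated cells. SLC22A12 was at -0.42, SLC22A2 at -0.26, SLC22A6 at -0.20 and MIOX at 0.16. Of 15 fibroblast, endothelial and leukocyte markers, 6 rose and 1 fell (40% higher, beside 12.4% of all genes), and the list's mean level was 4.46 and 4.50 in vehicle and 4.96 and 4.93 in treated cells; the part of this shift in the difference of SLC34A2 was not tested. The rises included PECAM1, an endothelial adhesion molecule (1.79, and 0.94 as the mean of its 2 probe sets). CD68, a lysosomal protein of macrophages (1.53), and CD14, a lipopolysaccharide coreceptor (1.18), also rose. The other rises were of CD3E (0.92), COL1A1 (0.63) and PDGFRA (0.53). The endothelial marker KDR was the fall, at -0.55, and the endothelial markers VWF (0.33) and CDH5 (0.18) were not called. Without either vehicle array the calls of COL1A1 and KDR were lost, and that of KDR also without the second treated array. PTPRC, the pan-leukocyte marker, lay between 2.93 and 3.20 on all arrays. RMA levels have no zero, so none of these markers is at 0. In such bulk RNA, a change in the share of cells with a transcript and a change in RNA per cell cannot be told apart.

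No measured gene near SLC34A2 on chromosome 4 was called higher. Between it and the nearest measured genes lie 2 annotated genes on the side of SEL1L3 and 6 on that of ANAPC4. Those were not tested. Of the 5 nearest genes with a probe set on each side, 0 rose and 4 fell in limma's test (without adjustment, at p under 0.05, 0 higher and 7 lower), with differences between -1.09 and 0.17. Over all genes 12.4% were called higher and 15.6% lower, with a median difference of -0.07. SEL1L3, the nearest on the one side, read 10.02 and 9.92 in vehicle and 8.97 and 8.80 in treated cells, and fell by 1.09 (SE 0.12, limma adjusted p = 0.00121). ANAPC4, a subunit of the anaphase-promoting complex and the nearest on the other side, read 9.47 and 9.49 in vehicle and 9.44 and 9.25 in treated cells (-0.14, limma adjusted p = 0.460). The zinc finger gene ZCCHC4 fell by 0.99, SEPSECS, an enzyme of selenocysteine synthesis, by 0.75, and SMIM20, a mitochondrial assembly factor, by 0.68. The last 2 falls were not called without the first vehicle array (limma adjusted p = 0.0530 and 0.0810) or without the second (limma adjusted p = 0.0602 and 0.0743). PI4K2B, RBPJ and CCKAR lay at -0.40, -0.36 and -0.42 and were not called, but were called lower without the first treated array (-0.54, -0.52 and -0.55) and with arrays centred on their medians (-0.51, -0.48 and -0.53), and LGI2 and TBC1D19 lay at 0.17 and -0.23.

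**Figure D4:**
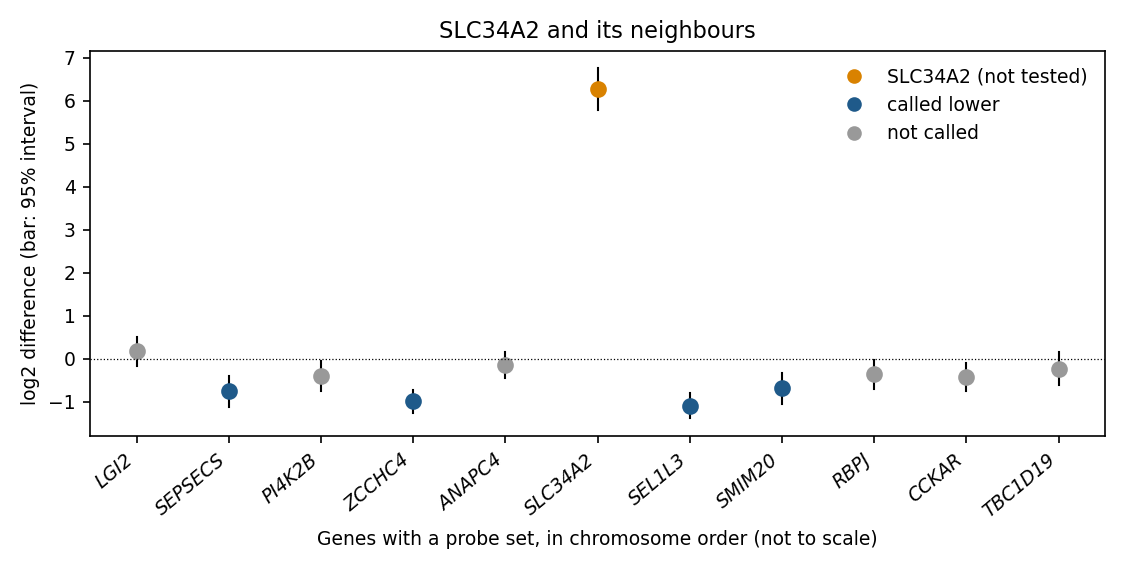
Log2 difference between treated and vehicle arrays with its 95% interval for SLC34A2 (orange, not tested) and the 5 nearest genes with a probe set on each side, in chromosome order and not to scale; blue points were called lower and grey points were not called. SLC34A2 stands at 6.27, while the 10 neighbours lie between -1.09 and 0.17.

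The genes whose values over the 4 arrays were most like those of SLC34A2 were not among these neighbours. Likeness was the Euclidean distance over the 4 arrays after each gene's vehicle mean was subtracted, and since it uses the same contrast it is a description. The nearest was UCHL1, a ubiquitin hydrolase on chromosome 4 (distance 0.43, difference 6.47). GCNA, a germ cell nuclear protein on the X chromosome, was at 0.58, and NNAT, the imprinted neuronatin on chromosome 20, at 0.62. INA, a neuronal intermediate filament on chromosome 10, was at 0.69, and the small nucleolar RNA SNORD113-4 on chromosome 14 at 0.75. Their differences lay between 5.90 and 6.47, and for none of them did the vehicle arrays differ as much as for SLC34A2.

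Other genes that carry, sense or regulate phosphate moved in both directions. Over 5 lists ordered by role, 55 of 62 genes were tested and 7 are not analysed here. Of the 55, 9 rose and 12 fell (16.4% and 21.8%, beside 12.4% and 15.6% of all genes). Their median difference was -0.07, as over all genes. Of these 21 calls, 8 were lost when 1 array was left out, and the falls numbered 7 without the second vehicle array.

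Among 9 other carriers of phosphate and related ions, 0 rose and 3 fell (33.3% called, beside 28% of all genes). At an unadjusted p under 0.05 in limma's test 0 were higher. SLC37A4, which exchanges glucose-6-phosphate for phosphate at the endoplasmic reticulum, read 10.44 and 10.51 in vehicle and 9.36 and 9.35 in treated cells. It fell by 1.12 (SE 0.11, limma adjusted p = 0.000708), with tight arrays in both groups. ANKH, which releases ATP and pyrophosphate precursors from cells, fell from 9.78 ± 0.07 to 8.90 ± 0.10 (SD, n = 2; limma adjusted p = 0.00262). SLC17A3, a renal organic anion transporter first described as a phosphate carrier, fell by 0.54 from a vehicle level of 3.61, a call lost without either vehicle array (-0.56 and -0.52, limma adjusted p = 0.115 and 0.142). SLC25A3, which imports phosphate into mitochondria, lay between 11.97 and 12.14 on all arrays and did not pass (limma adjusted p = 0.691). SLC37A1 was at 0.21 and did not pass either (limma adjusted p = 0.266).

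Of 7 proteins that hold or regulate the cotransporters at the membrane, 1 rose and 1 fell (28.6% called, beside 28% of all genes). SGK1, a kinase that raises sodium-coupled transport, read 6.43 and 6.35 in vehicle and 7.56 and 7.57 in treated cells and rose by 1.17 (SE 0.11, limma adjusted p = 0.000594). PDZK1, a scaffold of apical transporters, was called lower at -0.41 (limma adjusted p = 0.0482), and no fit without 1 array kept that call (limma adjusted p 0.0622 to 0.364). NHERF1, the main PDZ partner of SLC34A1, was at 0.21 (limma adjusted p = 0.247). NHERF4, another apical PDZ scaffold, was at -0.31 (limma adjusted p = 0.416).

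Hormones, receptors and enzymes of phosphate homeostasis held the largest share of calls among the 5 lists, with 6 rises and 5 falls of 21 tested (52.4% called, beside 28% of all genes). STC1, stanniocalcin, a secreted regulator of calcium and phosphate, read 3.52 and 3.47 in vehicle and 5.51 and 5.47 in treated cells, a rise of 2.00 (SE 0.11, limma adjusted p = 5.47e-05). ALPL, the tissue-nonspecific alkaline phosphatase that frees phosphate outside the cell, read 5.90 and 5.95 in vehicle and 7.75 and 7.90 in treated cells, a rise of 1.90 (SE 0.12, limma adjusted p = 8.47e-05). KL, klotho, the coreceptor of the phosphaturic hormone FGF23, rose by 1.12 (SE 0.15), while FGF23 itself lay between 4.69 and 4.94 on all arrays (limma adjusted p = 0.502). These 3 rises started from vehicle levels of 3.49, 5.92 and 4.33 and were kept without any 1 array. Smaller rises, which were picked for mention with their values in view, were those of the intestinal phosphatase ALPI (0.59), the parathyroid hormone receptor PTH1R (0.56) and the FGF receptor FGFR1 (0.43). The calls of ALPI and PTH1R were lost without the first vehicle array (limma adjusted p = 0.186 and 0.139), that of PTH1R also without the second (limma adjusted p = 0.105), and that of FGFR1 without either vehicle array or the second treated array (limma adjusted p 0.0804 to 0.250).

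The falls of this list included enzymes that modify FGF23 after translation. GALNT3, which glycosylates FGF23, read 7.82 and 7.69 in vehicle and 6.94 and 6.47 in treated cells, a fall of 1.05 (SE 0.17, limma adjusted p = 0.00523). FAM20C, the kinase that phosphorylates FGF23 among many secreted proteins, read 8.51 and 8.94 in vehicle and 7.48 and 7.87 in treated cells, a fall of 1.05 (SE 0.19, limma adjusted p = 0.00783). The treated arrays lay below the vehicle arrays for both. ENPP1, which makes pyrophosphate, fell by 0.92 and CYP27B1, which activates vitamin D, by 0.82 (SE 0.13 and 0.12). PHEX, a peptidase mutated in hypophosphatemic rickets, was called lower at -0.49 (limma adjusted p = 0.0458), and that call was lost in each fit without 1 array (limma adjusted p 0.0584 to 0.362), with a difference of -0.32 without the second vehicle array. CYP24A1, the vitamin D hydroxylase, was at 11.72 to 11.88 on all arrays and VDR, the vitamin D receptor, at 7.80 to 8.21, and neither passed (limma adjusted p = 0.617 and 0.738).

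Kinases of the pathway to the inositol pyrophosphates read by XPR1, listed together with KIDINS220, did not pass the test but for 1. Of 8 genes tested, 0 rose and 1 fell (12.5% called, beside 28% of all genes). At an unadjusted p under 0.05 in limma's test 1 was higher, KIDINS220, which is not one of these kinases. PPIP5K1 read 8.85 and 9.06 in vehicle and 7.95 and 8.34 in treated cells and fell by 0.81 (SE 0.17, limma adjusted p = 0.0120), a call lost without the second vehicle array (-0.71, limma adjusted p = 0.0690). Its paralog PPIP5K2 was at 0.04. KIDINS220, a membrane scaffold reported to pair with XPR1, was at 0.36 (limma adjusted p = 0.0993). The inositol kinases IP6K2 and ITPK1 were at -0.11 and -0.04.

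Of 10 subunits of the sodium pump, whose gradient drives the cotransporters, 2 rose and 2 fell (40% called, beside 28% of all genes). The beta subunit ATP1B2 read 5.95 and 5.85 in vehicle and 7.20 and 7.07 in treated cells and rose by 1.23 (SE 0.12, limma adjusted p = 0.000600). FXYD4, a small regulatory subunit, rose by 0.79, and FXYD6, another, fell by 0.72 (SE 0.12 and 0.11). ATP1B1, the common beta subunit, was called lower at -0.49 (limma adjusted p = 0.0469), a call lost without either vehicle array (limma adjusted p = 0.227 and 0.162) or without the second treated array (-0.32, limma adjusted p = 0.107). The alpha subunits are not analysed here.

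**Figure D5:**
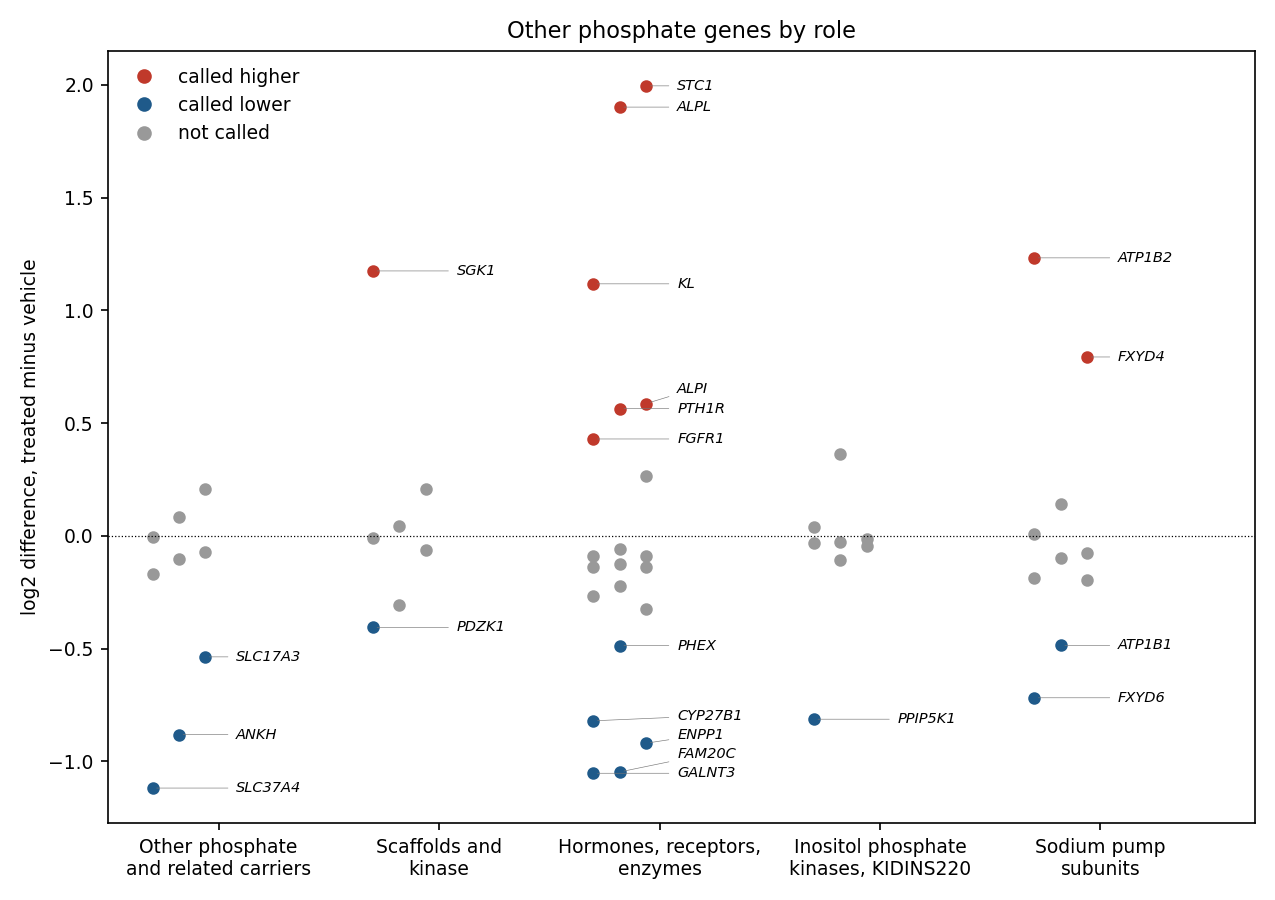
Log2 difference between treated and vehicle arrays (vertical axis) of 55 genes in 5 lists by role in phosphate handling, with genes called higher in red, called lower in blue and not called in grey; called genes are named. The calls go both ways, from SLC37A4 at -1.12 to STC1 at 2.00.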

How the data were processed

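Levels of HCT116 cells on 4 arrays (2 vehicle, 2 treated) were taken from the deposited log2 table, which the authors produced in Affymetrix Expression Console by RMA, per the submitters' processing notes. The sources used here do not give versions or a genome build. RMA corrects background, quantile normalizes arrays and summarizes probes, so a change in total RNA per cell cannot be seen. Of 33297 probe sets, 19181 name 1 gene, 2055 several, and 12061 are unnamed here. For each of 17958 genes the probe set brightest on average over all arrays was used, with no filter on dim genes. Near-identical paralogs were not assessed.

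The comparison used limma (version 3.58.1, R 4.3.3) with lmFit and eBayes, two-sided, no covariate, and Benjamini-Hochberg adjustment across every gene tested. A call is an adjusted p under 0.05. An exact permutation test of 2 against 2 cannot go below 0.333. Intervals are 95% and use the moderated error. The script was tested on simulated arrays. Promoter windows came from RefSeq, GRCh38.p14, and its gene table of that assembly gave gene order only.

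Members, lists, tests and alternatives were chosen with earlier results of these data known. Named by rule were the members, 5 neighbours on each side of SLC34A2, the genes of each list with the smallest p (up to 4), called genes of a list direction with 5 or fewer calls, leading solute carriers (5 highest, 3 lowest) and the 5 genes most like SLC34A2. Others were named after their values were seen. Of these, only ALPI, PTH1R and FGFR1 were followed through the alternatives with the genes named by rule. Alternatives were the replicate block, each array left out, 3 other scalings, a dim filter, 2 probe set choices, a trended prior and 2 thresholds.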

Additional observations from a re-analysis of the deposited data

How the results depend on the processing

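The difference of SLC34A2, which was picked for this contrast, ran from 5.97 to 6.58 over the 14 alternatives, as a description only. The replicate block, the trended prior and the 2 thresholds cannot change a difference. The other 5 members were called in none of the 14, and under the 2 thresholds they could not be. Signs of uncalled genes turned as follows: SLC20A1 without treated replicate 1 (-0.042, against 0.45 without treated replicate 2); SLC20A2 (-0.093) and XPR1 (-0.049) with arrays centred on their medians; IP6K2 without 1 array (-0.29 to 0.068); ITPK1 without 1 array (-0.21 to 0.12), with repeated quantile normalization (0.038) and housekeeping centring (0.026); and NHERF4 without 1 array (-0.66 to 0.041). Of 70 other named genes, 49 were called, none of them turned, and 17 lost the call without 1 array, where the lone array of a group is assumed to vary like the rest. Another scaling ended the calls of PDZK1, ATP1B1, PTH1R, PHEX, FGFR1, KRT18 and CDX2, which are among those lost without 1 array.

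Over all genes, rises and falls (2229 and 2794) ran from 1267 to 2530 and from 1196 to 3401 without 1 array. They were 1298 and 1255 at an adjusted p under 0.01, and 907 and 470 at 2-fold. Median centring gave 4309 falls, with rises 29.2% of calls against 44.4% as deposited, and moved the median gene to -0.19. With every probe set tested and at an adjusted p under 0.01, the phosphate lists had 7 falls, and at 2-fold 5 rises and 3 falls. Without 1 array their falls ran from 7 to 10 and their rises from 6 to 9.

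Same-numbered arrays deviated together (correlation 0.27 over genes), a hint from the data only, since they share only a number. With the replicate block 2805 genes rose and 3834 fell, and the members' calls and the 12 falls of the phosphate lists were the same in number, with 10 rises. It added calls of 7 named genes (KRT19, KIDINS220, SLC9A3, SLC22A12, PI4K2B, RBPJ and CCKAR) and removed none. The number of arrays limits the precision.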
